A study of Mus musculus with 22 samples.

Results

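Transcripts of the colony-stimulating factor (CSF) receptors and of the ligands of the CSF1 receptor were followed in whole spinal cord of old mice and of mice with motor neuron disease. The 6 genes were taken by name from the 21995 genes of the count table, with earlier results of these data known. They were Csf1r, the receptor tyrosine kinase of macrophages and microglia, its ligands Csf1 and Il34, the alpha and beta chains of the GM-CSF receptor Csf2ra and Csf2rb, and the G-CSF receptor Csf3r. All 6 were found and all 6 passed the count filter in both comparisons, Csf2rb in aging only through its Old libraries.

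CSF1R is the receptor on which microglia, the resident macrophages of brain and spinal cord, depend for survival and proliferation. CSF1 and IL-34 are secreted by other cells, IL-34 largely by neurons and CSF1 by glia and, after injury, by neurons, and both bind CSF1R. GM-CSF binds a specific alpha chain that pairs with a common beta chain shared with the receptors for IL-3 and IL-5, and the CSF3 receptor acts alone as a homodimer. The cytokine receptors lack a kinase of their own and signal through JAK kinases and STAT factors.

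RNA-seq covered whole cords of C57BL/6 mice in 4 groups, with 1 library for each mouse. For aging, 8 Young and 8 Old wild-type males, aged 3 to 4 months and 18 to 24 months, were prepared with the Roche KAPA kit. For ALS, 3 SOD1-G93A mice and 3 wild-type mice called Control, 2 females and 1 male in each group and 5 to 6 months old by the labels, were prepared with the Illumina TruSeq kit. SOD1-G93A mice carry a transgene of mutant human SOD1 (G93A) under its own promoter and develop a fast motor neuron disease that models an inherited form of ALS, and they were symptomatic when sampled. Aging and ALS were filtered, scaled and tested separately, because kit, age and sex differ between the experiments.

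Libraries are named here by group and a letter, and the letters of different groups are unrelated. Total counts were 5078092 to 9358055 in Young, 5664869 to 9145600 in Old, 10693060 to 13219797 in Control and 9675610 to 11872431 in SOD1-G93A libraries, and 3 counts corresponded to at most 0.591 CPM (counts scaled to library size) in any library. The mouse Sod1 row stood at 156 to 168 CPM in Control and 296 to 335 CPM in SOD1-G93A libraries, and whether reads of the human transgene were counted there is not stated in the sources used here. Old F stood apart, with 13.2% of its counts on mitochondrial genes against 5.24% to 9.18% in the other Old libraries. SOD1-G93A A and Old E held Prx, which encodes periaxin of Schwann cells, at 20.9 and 17.4 CPM, while the other SOD1-G93A and Old libraries stayed at or below 1.75 CPM. Without Old F the aging log2 fold changes of the 6 genes were 0.74 for Csf1r, 0.64 for Csf1, 0.23 for Il34, 0.37 for Csf2ra, 2.47 for Csf2rb and 1.63 for Csf3r, and without SOD1-G93A A those in ALS were 1.62, 1.36, -0.11, 1.49, 3.48 and 2.54 in the same order. In both cases the same 5 genes passed the test as with all libraries.

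On GRCm38, Csf1 lies at chr3:107741048-107760469 and Il34 at chr8:110741829-110805924, both on the minus strand, and Il34 overlaps the antisense genes Gm15894 and Gm15895. Csf2ra lies at chr19:61223957-61228429 on the minus strand, Csf3r at chr4:126024550-126044440 on the plus strand, and Csf2rb at chr15:78325752-78353847 on the plus strand. Close to Csf2rb, at chr15:78282507-78305721 on the minus strand, lies its near copy Csf2rb2, which encodes the beta chain that serves only IL-3 in the mouse. Of the 50-base windows in the annotated transcripts of Csf2rb, 12.3% also occur in those of Csf2rb2, so reads from those stretches could be assigned to either gene. The sources used here do not say whether reads were counted by strand.

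The 250 bases before the RefSeq start site are shown for 2 receptor genes and for the ligand gene Csf1. Windows of Csf1r, Il34 and Csf2rb are not reported here. Transcripts of all the genes shown were higher in both comparisons. The windows shown are RefSeq sequences of build GRCm38.p6, 5′ to 3′ on the strand of the gene, at chr19:61228419-61228668 for Csf2ra, chr4:126024409-126024658 for Csf3r and chr3:107760470-107760719 for Csf1. Capitals mark GAGGAA, letters of the purine-rich core that the macrophage factor PU.1 (Spi1) binds, searched on both strands.
Csf2ra: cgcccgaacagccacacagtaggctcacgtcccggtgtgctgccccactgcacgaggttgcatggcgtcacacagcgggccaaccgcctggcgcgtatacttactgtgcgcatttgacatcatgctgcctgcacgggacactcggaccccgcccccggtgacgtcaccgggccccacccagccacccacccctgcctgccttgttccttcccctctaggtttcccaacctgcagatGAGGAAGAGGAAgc
Csf3r: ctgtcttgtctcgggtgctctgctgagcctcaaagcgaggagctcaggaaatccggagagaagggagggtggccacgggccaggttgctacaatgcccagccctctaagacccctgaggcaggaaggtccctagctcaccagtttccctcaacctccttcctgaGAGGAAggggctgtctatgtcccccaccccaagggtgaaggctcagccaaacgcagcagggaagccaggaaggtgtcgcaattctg
Csf1: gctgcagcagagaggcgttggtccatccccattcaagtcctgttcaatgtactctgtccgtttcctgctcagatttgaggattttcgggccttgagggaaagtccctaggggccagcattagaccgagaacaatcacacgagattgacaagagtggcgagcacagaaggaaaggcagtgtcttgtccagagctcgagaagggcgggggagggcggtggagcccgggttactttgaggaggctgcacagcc
The Csf2ra window held 2 matches that begin 14 and 8 bases before the start, directly next to each other. The Csf3r window held 1 match, 86 bases before the start, and the Csf1 window held 0. These distances are to the RefSeq start. In GENCODE Csf3r begins at chr4:126024550 and Csf2ra, on the minus strand, at chr19:61228429, both inside these windows. The Csf3r match and the nearer Csf2ra match thus lie within the gene by GENCODE, and the other Csf2ra match spans its first base. The window of Csf2rb2 held 1 match on the opposite strand. Of 32851 windows of the same length, 23.3% held a match on either strand and 3.54% held 2 or more, so a match by itself is common and is only a description of the letters.

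Per transcript length, Csf1r was the most abundant of the 6 and Csf2rb the least abundant in every group. On the FPKM scale, which divides by length and library size, the mean level in Young libraries was 20.5 ± 1.55 for Csf1r, 16.01 ± 1.52 for Csf1, 9.33 ± 1.35 for Il34, 6.94 ± 0.881 for Csf2ra, 2.08 ± 0.744 for Csf3r and 0.204 ± 0.0773 for Csf2rb (SD, n = 8). Each gene exceeded the next in that order within 8 of 8 Young libraries, although the ranges of Csf1r and Csf1, and those of Il34 and Csf2ra, overlapped between libraries. Control libraries gave the same order.

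In Old libraries the order was kept in the means but its middle closed up. Mean Il34 was 9.43 FPKM and mean Csf2ra 8.97 FPKM, and Il34 exceeded Csf2ra in only 4 of 8 libraries. Csf1r, at 33.3 FPKM, exceeded Csf1, at 25.2 FPKM, in 7 of 8. In SOD1-G93A libraries Il34, at 9.55 ± 1.35 FPKM (SD, n = 3), came after both Csf2ra, at 27.3 ± 7.54, and Csf3r, at 19.7 ± 5.43, whose own ranges overlapped. Of the 6 only Csf2rb was below Il34 in SOD1-G93A libraries, whereas Csf2ra, Csf3r and Csf2rb were below it in Control libraries.

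The aging comparison asks how these transcripts differ between young and old wild-type cord. Of the 6 genes, 5 were higher in Old libraries and 0 were lower by edgeR's quasi-likelihood test with Benjamini-Hochberg adjusted p under 0.05, where 13.5% of the 13647 genes tested were higher and 12.9% lower. At an unadjusted p under 0.05 and by DESeq2 the number lower was also 0. With a log2 fold change beyond 1 required as well, 2 were higher, Csf2rb and Csf3r, and 0 lower, against 2.18% and 0.044% of all genes. Csf2rb could be tested in aging only through its Old libraries, where it was high. Old and Young libraries did not overlap for 4 of the 6, Csf1r, Csf1, Csf2rb and Csf3r, all higher in Old, against 3.66% of all genes. The median log2 fold change of the 6 was 0.65 and that of all genes tested -0.0027. Il34 was the gene that did not pass. In the whole cord, more cells that carry a transcript and more of it per cell cannot be told apart.

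Csf1r lies at chr18:61100598-61132149 on the plus strand of GRCm38, and its exons overlap those of Hmgxb3 on the other strand. Csf1r ranged from 77.2 through a median of 86.7 to 98.0 CPM in Young and from 107.7 through 141.5 to 165.1 CPM in Old libraries. The groups did not overlap, and the lowest Old library was Old F. Its log2 fold change was 0.69 ± 0.07 (SE), which is 1.61-fold, with an adjusted p of 1.02e-07 (edgeR quasi-likelihood). Hmgxb3 had a log2 fold change of 0.04 and an adjusted p of 0.68 (edgeR). Of all 6 genes Csf1r also varied least among Young libraries, with a coefficient of variation of 6.79% in CPM.

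Of the ligands, Csf1 rose and Il34 did not pass the test. Csf1 ranged from 56.1 through a median of 61.1 to 68.7 CPM in Young and from 79.4 through 92.8 to 107.0 CPM in Old libraries. The groups did not overlap, and the log2 fold change was 0.61 ± 0.07 (SE) with an adjusted p of 2.32e-07 (edgeR). Il34 ranged from 9.95 through 11.2 to 14.4 CPM in Young and from 10.2 through 13.5 to 14.5 CPM in Old libraries. These groups overlapped almost entirely, with a log2 fold change of 0.19 ± 0.10 (SE), a 95% interval of -0.01 to 0.39 and an adjusted p of 0.156 (edgeR). The interval leaves room for a rise smaller than that of Csf1 and for none.

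The cytokine receptors rose by very different amounts. Csf2ra, the GM-CSF-specific chain, ranged from 10.7 through 13.1 to 17.3 CPM in Young and from 11.7 through 18.0 to 20.8 CPM in Old libraries. The groups overlapped, with 5 of 8 Old libraries above every Young library and Old E, Old F and Old H, the lowest, below Young F, and the log2 fold change of 0.37 ± 0.10 (SE) had an adjusted p of 0.00927 (edgeR).

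Csf2rb, the shared beta chain, ranged from 4 to 14 counts (0.618 through a median of 0.977 to 1.59 CPM) in Young and from 22 to 53 counts (3.39 through 5.70 to 7.58 CPM) in Old libraries. The groups did not overlap, although the young values rest on few counts, with a median of 7.5 below the filter's minimum count of 10. Csf2rb could thus be tested only through the Old libraries, where it was high. The log2 fold change was 2.40 ± 0.22 (SE) with an adjusted p of 2.05e-08 (edgeR), the largest of the 6. The near copy Csf2rb2 had 2 to 11 counts in Young and 16 to 66 counts in Old libraries and a log2 fold change of 2.48 ± 0.28 (SE) with an adjusted p of 4.7e-07 (edgeR), so that the pair rose by a similar amount. Csf2rb2, too, could be tested only through the Old libraries.

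Csf3r ranged from 3.83 through 5.34 to 6.56 CPM in Young and from 10.5 through 16.3 to 19.4 CPM in Old libraries, again without overlap. Its log2 fold change was 1.57 ± 0.13 (SE) with an adjusted p of 2.62e-09 (edgeR). CSF3R is best known from neutrophils. Of 9 neutrophil marker genes 0 had enough counts to be tested, their summed level was 0.194 to 1.27 CPM in Young and 0.463 to 3.13 CPM in Old libraries, and Ly6g had 0 counts in every library. Old F, with the lowest Csf1r, Csf2rb and Csf3r of its group, also had the lowest sums of neutrophil, microglial, general myeloid and T cell markers. Its neutrophil sum of 0.463 CPM is 3 counts over the 9 genes.

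**Figure D1:**
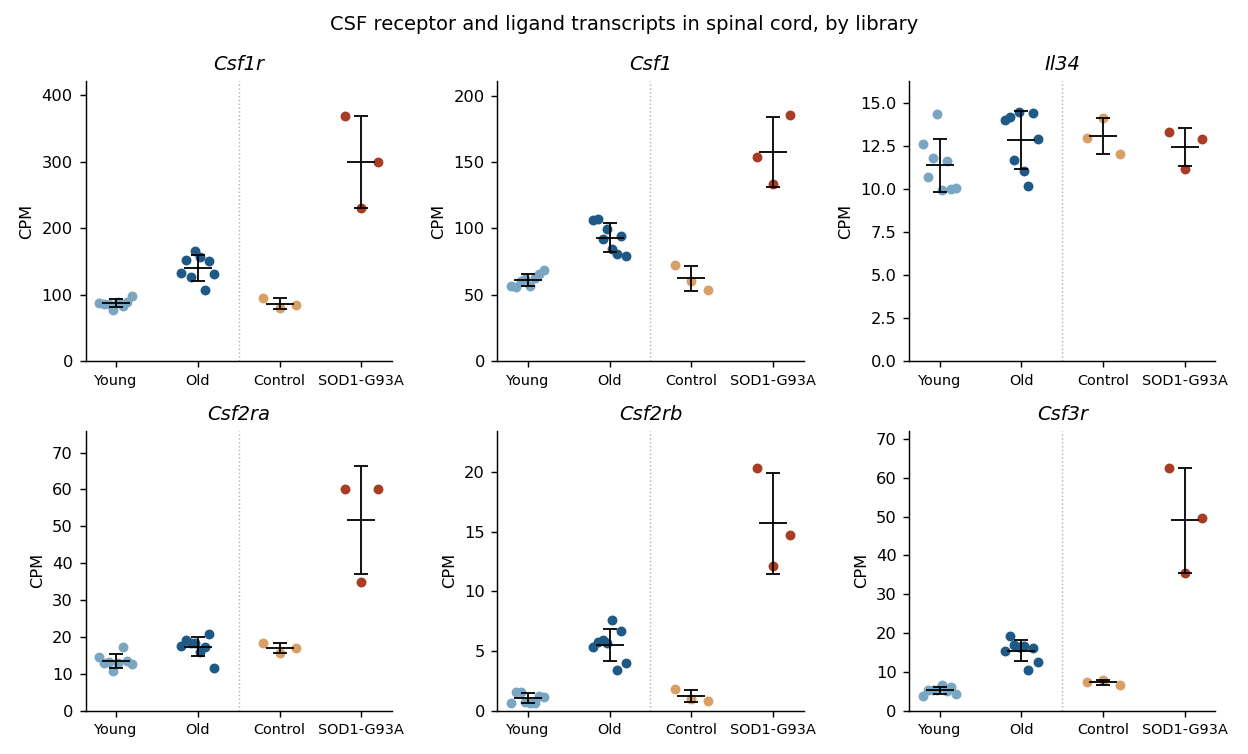
Level of each of the 6 transcripts in CPM (y axis, linear and starting at 0) by group (x axis); each point is a library and the bars give mean and SD, with a dotted line between the aging and ALS experiments, whose kits differ. Young and Old do not overlap for Csf1r, Csf1, Csf2rb and Csf3r, Control and SOD1-G93A do not overlap for all but Il34, and Il34 stays between 9.95 and 14.5 CPM in all 4 groups.

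The ALS comparison puts symptomatic SOD1-G93A mice beside wild-type mice of the same age. The same 5 of 6 genes were higher, now past both thresholds, and 0 were lower, also at an unadjusted p under 0.05 and by DESeq2, where 18.4% of the 14386 genes tested were higher by adjusted p alone, 15.5% were lower, 8.5% were higher by both thresholds and 1.2% lower. The groups did not overlap for these 5 genes, which with 3 libraries a side held for 25.7% of all genes in that direction. The median log2 fold change of the 6 was 1.70, and that of all genes tested 0.0031.

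Csf1r measured 95.6, 79.8 and 84.4 CPM in Control A, B and C and 368.3, 230.3 and 298.9 CPM in SOD1-G93A A, B and C. Its log2 fold change was 1.79 ± 0.17 (SE), or 3.46-fold, with an adjusted p of 0.000229 (edgeR quasi-likelihood). SOD1-G93A B was the lowest of its group here and for each of the other 5 genes. Hmgxb3 on the other strand moved the opposite way, with a log2 fold change of -0.32 and an adjusted p of 0.0248 (edgeR). This p went to 0.0584, 0.0748, 0.0816 and 0.109 without Control A, B, C or SOD1-G93A C. With limma on log2(FPKM + 1) the log2 fold change was -0.23 and the adjusted p 0.159.

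Csf1 measured 72.6, 60.7 and 53.8 CPM in Control A, B and C and 153.7, 133.1 and 185.1 CPM in SOD1-G93A A, B and C. Its log2 fold change was 1.34 ± 0.15 (SE) with an adjusted p of 0.000462 (edgeR). Il34, the other ligand of the same receptor, measured 13.001, 14.1 and 12.1 CPM in Control and 13.3, 11.2 and 12.9 CPM in SOD1-G93A libraries. The 2 sets of Il34 values overlapped, with a log2 fold change of -0.07 ± 0.14 (SE), a 95% interval of -0.38 to 0.25 and an adjusted p of 0.742 (edgeR). An increase of Il34 as large as that of Csf1 lies outside this interval.

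Csf2ra measured 18.5, 15.6 and 17.0 CPM in Control A, B and C and 60.0, 34.8 and 60.2 CPM in SOD1-G93A A, B and C, a log2 fold change of 1.61 ± 0.20 (SE) with an adjusted p of 0.000877 (edgeR). Csf2rb measured 1.80, 1.01 and 0.845 CPM in Control and 20.3, 12.1 and 14.7 CPM in SOD1-G93A libraries, which is 11 to 19 counts against 120 to 240 counts. Its log2 fold change of 3.71 ± 0.31 (SE, adjusted p = 0.000173, edgeR) was again the largest of the 6. Csf2rb2, at 4 to 9 counts in Control and 81 to 241 in SOD1-G93A libraries, had a log2 fold change of 4.82 ± 0.45 (SE, adjusted p = 0.000236, edgeR). Its Control counts all lay below the filter's minimum count of 10, so it could be tested only through the SOD1-G93A libraries.

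Csf3r measured 7.40, 7.91 and 6.68 CPM in Control A, B and C and 62.4, 35.4 and 49.5 CPM in SOD1-G93A A, B and C. The lowest SOD1-G93A library thus lay far above the highest Control library, and the log2 fold change was 2.75 ± 0.21 (SE) with an adjusted p of 0.000124 (edgeR). Of the 9 neutrophil markers 0 could be tested here either, and their summed level was at most 1.52 CPM in Control and 3.14 CPM in SOD1-G93A libraries, with Ly6g and Cxcr2 at 0 counts throughout.

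**Figure D2:**
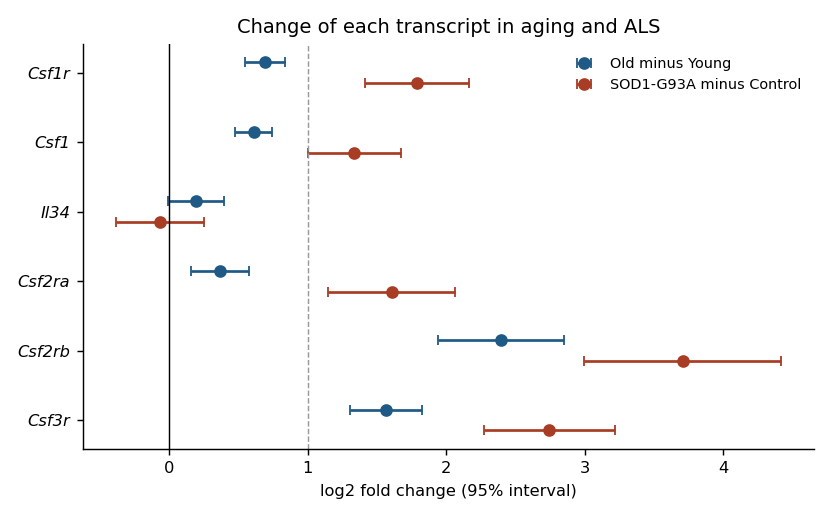
Log2 fold change of each transcript (x axis) with its 95% interval from edgeR, for Old minus Young and for SOD1-G93A minus Control; the dashed line marks a log2 fold change of 1. In both comparisons Csf2rb lies farthest to the right, followed by Csf3r, and the intervals of Il34 span 0.

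The 2 changes were compared by an interaction term in a single edgeR fit of all 22 libraries. The change in ALS was the larger for 5 of the 6 genes and the smaller for 0, where 11.6% of 14502 genes tested had a more positive and 14.2% a more negative change in ALS. On the log2 scale the difference was 1.07 ± 0.16 (SE, adjusted p = 3.47e-05) for Csf1r, 0.70 ± 0.14 (adjusted p = 0.000741) for Csf1, 1.21 ± 0.21 (adjusted p = 0.000147) for Csf2ra and 1.15 ± 0.24 (adjusted p = 0.000798) for Csf3r. For Csf2rb it was 1.27 ± 0.41 (adjusted p = 0.0216), which went to an adjusted p of 0.067, 0.0857 and 0.0867 without Control B, Control C and SOD1-G93A A. For Il34 the difference was -0.28 ± 0.17 with a 95% interval of -0.63 to 0.07 and an adjusted p of 0.234. Disease, kit, sex and age range all differ between the 2 experiments and cannot be told apart in this difference.

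Because both ligands bind the same receptor, their ratio was taken in each library on the FPKM scale. Csf1 was 1.39 to 2.10 times Il34 in Young and 1.88 to 4.94 times Il34 in Old libraries, with medians of 1.80 and 2.63. The mean log2 ratio was 0.79 ± 0.25 in Young and 1.44 ± 0.40 in Old (SD, n = 8), a difference of 0.65 with an exact two-sided permutation p of 0.000932, or 0.00373 after Benjamini-Hochberg adjustment over 4 such tests. Old H, at 1.88, was the only Old library within the range of the Young libraries. Old F, at 4.94, was far above the other 7, which ended at 2.85, and without it the difference was 0.53 on the log2 scale. With CPM in place of FPKM the difference was 0.42 (exact permutation p = 0.00124), and Old F did not stand far above the other Old libraries.

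In ALS the ratio of Csf1 to Il34 was 1.99, 1.72 and 1.41 in Control A, B and C and 4.02, 5.29 and 5.25 in SOD1-G93A A, B and C. The groups did not overlap. The log2 difference was 1.51, and the exact two-sided permutation p of 0.1 is the smallest that 3 libraries against 3 can give.

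Csf1r was also set beside the genes of the cells that carry it, as its log2 CPM minus the mean log2 CPM of 10 microglial markers. In aging this measure was 2.22 ± 0.0923 in Young and 2.22 ± 0.154 in Old libraries (SD, n = 8), a difference of -0.00035 with an exact two-sided permutation p of 0.996. The sign of so small a difference changed when 1 library or 1 marker was left out, with values between -0.077 and 0.092. In ALS it was 1.93, 1.88 and 2.11 in Control A, B and C and 2.48, 2.16 and 2.28 in SOD1-G93A A, B and C, a difference of 0.33 with the smallest possible exact permutation p of 0.1.

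The markers behind this average did not move as one. In aging 7 of the 10 were higher and in ALS 6, beside 13.5% and 18.4% of all genes, the median log2 fold change being 0.72 and 1.47. P2ry12, a purinergic receptor of resting microglia, had a log2 fold change of 0.05 (adjusted p = 0.814, edgeR) in aging and 0.13 (adjusted p = 0.363) in ALS. Tmem119 had a log2 fold change of 0.54 (adjusted p = 0.00141, edgeR) in aging and 0.53 (adjusted p = 0.0599) in ALS. Of 8 general myeloid markers, such as Itgam and Aif1, all 8 were higher past both thresholds in each comparison, with median log2 fold changes of 1.56 and 2.84. With that list in place of the microglial one, the difference between groups in the Csf1r measure was -0.99 in aging (exact permutation p = 0.000155, the smallest possible) and -1.18 in ALS (exact permutation p = 0.1, again the smallest possible). In aging Csf1r thus rose by less than the average of the general myeloid list.

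**Figure D3:**
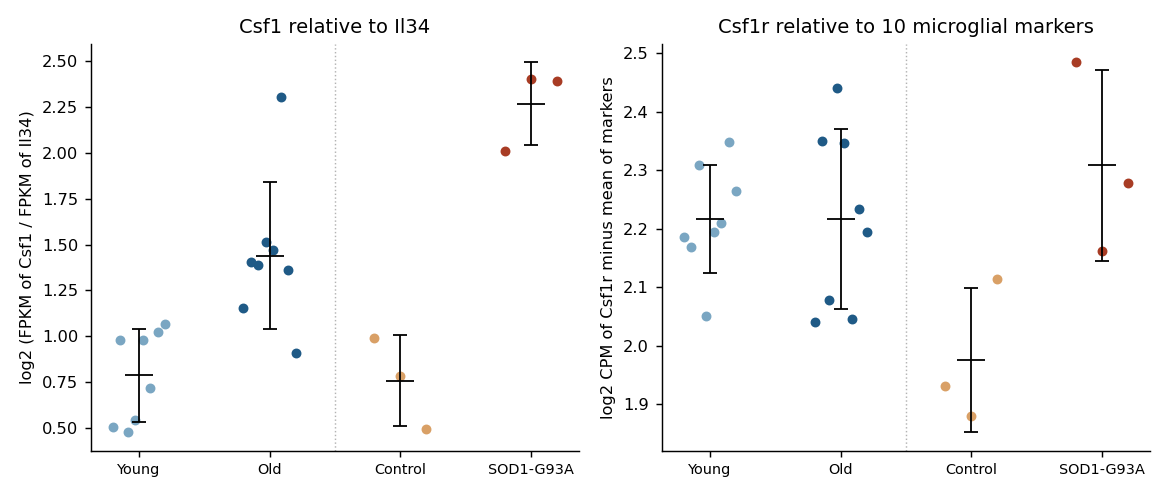
Left, log2 ratio of Csf1 to Il34 in FPKM; right, log2 CPM of Csf1r minus the mean of 10 microglial markers; each point is a library and bars give mean and SD, on axes that do not start at 0. The ligand ratio is higher in Old than Young and in SOD1-G93A than Control libraries, and the highest Old point is Old F at 2.30, while the measure at right has equal means of 2.22 in Young and Old.

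The other ligands that use these receptors were at or near 0. Csf2, which encodes GM-CSF, had at most 1 count in any library, Csf3 at most 2 and Il5 at most 3, while Il3 had 0 counts in every library. These counts do not exceed the limit of 3 counts per library below which a level was not distinguished from 0, and none of the 4 was tested. The receptor genes Csf2rb and Csf3r were thus higher in cords where transcripts of their ligands were not detectable at this depth.

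Among other receptors, Il3ra, the specific chain of the IL-3 receptor, had log2 fold changes of 1.75 ± 0.30 (SE, adjusted p = 0.000146, edgeR) in aging and 2.75 ± 0.31 (adjusted p = 0.000477) in ALS. It averaged 1.15 CPM in Young, 3.83 in Old, 1.68 in Control and 11.2 in SOD1-G93A libraries. Sdc1, a syndecan that binds IL-34, had log2 fold changes of 0.37 (adjusted p = 0.164, edgeR) and 1.32 (adjusted p = 0.00809). Ptprz1, a receptor phosphatase that also binds IL-34, had a log2 fold change of -0.17 in aging with an adjusted p of 0.0474 (edgeR), which was 0.0957 with limma on log2(FPKM + 1) and 0.0521 to 0.109 without any 1 of Young A, B, C and F or Old A, B, C, D, G and H. In ALS its log2 fold change was 0.24 with an adjusted p of 0.0618, which was 0.045 with DESeq2, 0.0337 with limma on log2(FPKM + 1) and 0.0295 without SOD1-G93A B. Il5ra had at most 2 counts and was not tested.

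Downstream of CSF1R, 17 of 25 tested genes of proximal signaling were higher and 3 lower in aging, and 16 of 26 higher and 1 lower in ALS, with median log2 fold changes of 0.31 and 0.69. Of all genes tested 13.5% were higher and 12.9% lower in aging, and 18.4% and 15.5% in ALS. Tyrobp, the adaptor DAP12 that couples CSF1R and TREM2 to the kinase SYK, averaged 10.05 CPM in Young, 48.2 in Old, 9.70 in Control and 141 in SOD1-G93A libraries, with log2 fold changes of 2.27 (adjusted p = 9.18e-10, edgeR) and 3.87 (adjusted p = 0.00016). The phosphatase gene Ptpn6 (SHP-1), a brake on the receptor, had log2 fold changes of 1.88 and 3.01, and the Src-family kinase gene Lyn 1.02 and 2.27, all called. The lower genes, named after their values were seen, were Fyn, Pik3r1 and Sos1 in aging and Sos1 in ALS, all with log2 fold changes between -0.13 and -0.53. Fyn was higher in ALS, with a log2 fold change of 0.32 (adjusted p = 0.0288, edgeR). Grb2, an adaptor that most cell types use, also named after its values were seen, did not pass in either comparison, with log2 fold changes of 0.07 (adjusted p = 0.168, edgeR) and -0.13 (adjusted p = 0.275).

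In the JAK-STAT arm 2 of 10 tested genes were higher in aging, Socs3 and Stat3, and 1 was lower, Jak2, shares near the 13.5% and 12.9% of all genes, with a median log2 fold change of 0.06. Jak2 had a log2 fold change of -0.19 (adjusted p = 0.0156, edgeR), and its call was lost with limma on log2(FPKM + 1) (-0.16, adjusted p = 0.0505). In ALS 4 of 11 were higher and 1, Jak1, was lower, beside 18.4% and 15.5% of all genes, with a median of 0.51. The number higher was 3 to 6 with 1 library left out. Tyk2, with an adjusted p of 0.018 (edgeR), lost its call without Control B (0.0798), SOD1-G93A A (0.0546) or SOD1-G93A C (0.0792). Socs3, which encodes the feedback inhibitor of cytokine receptors including CSF3R, averaged 1.997 CPM in Young, 6.17 in Old, 1.19 in Control and 26.0 in SOD1-G93A libraries, with log2 fold changes of 1.61 (adjusted p = 8.21e-05) and 4.50 (adjusted p = 0.000274). Stat3 had log2 fold changes of 0.26 and 0.93, both called. Stat5a, a main STAT of the GM-CSF receptor, had a log2 fold change of 0.12 (adjusted p = 0.629, edgeR) in aging and 1.19 (adjusted p = 0.00246) in ALS.

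Of 8 transcription factors known to act on Csf1r, 7 were higher in each comparison, beside 13.5% and 18.4% of all genes, 4 past both thresholds in aging and 7 in ALS, with medians of 0.96 and 2.27 on the log2 scale. Irf8 rose by 1.86 and 3.38, Runx1 by 1.67 and 2.84 and Spi1 by 1.29 and 2.71 in aging and ALS, on the log2 scale and all called by edgeR. Ets2 was the one that did not pass, with log2 fold changes of 0.02 and -0.18. The 7 that rose are also genes of the macrophage lineage, so they overlap in kind with the myeloid markers above.

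Genes of receptor shedding, survival and cell cycling were higher in 3 of 6 tested in aging and, without Bcl2a1d, in 7 of 7 in ALS, beside 13.5% and 18.4% of all genes. Ccnd1 and Ccnd2, the cyclins that growth factor receptors induce, had log2 fold changes of 0.53 and 0.38 in aging and 1.66 and 1.37 in ALS. Mcl1, a survival factor, had a log2 fold change of 0.35 in aging and 1.15 in ALS. Bcl2a1d had 0 counts in every Control library and averaged 3.91 CPM in SOD1-G93A libraries, so that it could be tested only through the group where it was high. Mki67, a marker of dividing cells that was named after its values were seen, averaged 1.14 CPM in Control and 10.7 in SOD1-G93A libraries and had too few counts in aging, at a mean of 0.481 CPM in Young and 0.390 in Old libraries, to be tested. Adam17, the protease that sheds CSF1R, had a log2 fold change of 0.01 in aging and 0.87 (adjusted p = 0.0026, edgeR) in ALS.

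**Figure D4:**
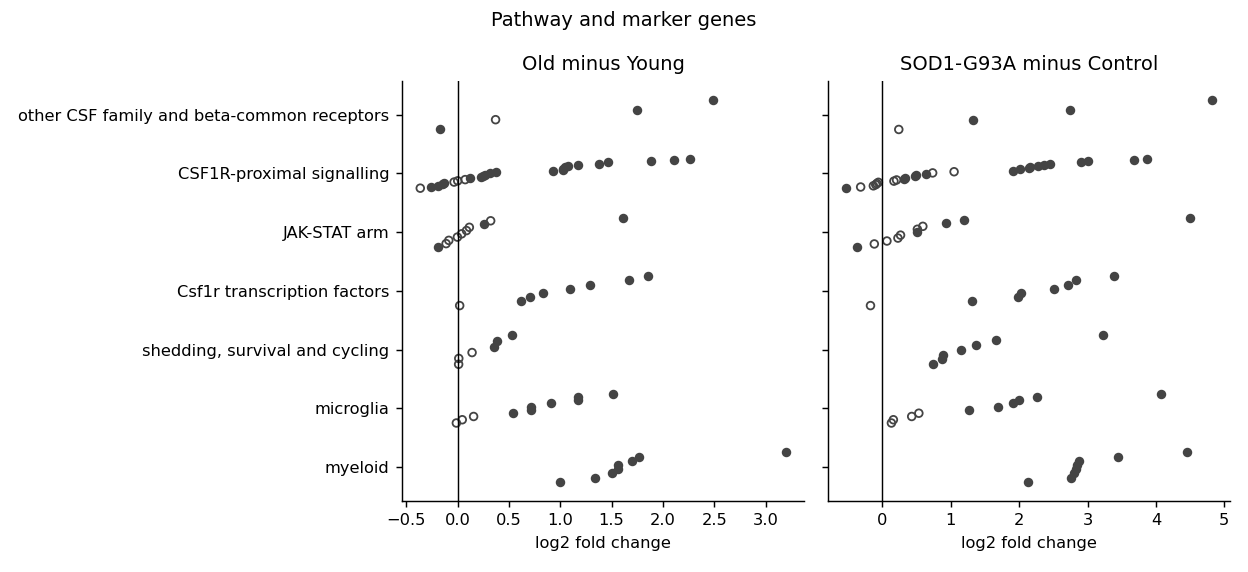
Log2 fold change of each tested gene (x axis) in the pathway and marker lists (y axis) for aging at left and ALS at right; filled points had an edgeR adjusted p under 0.05, open points did not, vertical spread within a list has no meaning, and Bcl2a1d is left out at right because it had 0 counts in all controls. Transcription factors and myeloid markers lie almost wholly to the right of 0, while the JAK-STAT arm has a median of 0.06 at left and 0.51 at right, with Socs3 farthest to the right in both.

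Markers of other cells moved beside these genes. In ALS, of 7 neuronal markers 6 were lower, of 5 motor neuron markers 3 were lower and of 6 astrocyte markers 5 were higher, beside 15.5% of all genes lower and 18.4% higher, the summed astrocyte level being 5239 to 5777 CPM in Control and 10822 to 17296 CPM in SOD1-G93A libraries. In aging 1 of the 7 neuronal markers was higher and 2 were lower, and of the 6 astrocyte markers 3 were higher and 1 was lower, beside 13.5% and 12.9% of all genes. The summed astrocyte level in aging was 5631 to 6203 CPM in Young and 6535 to 7231 CPM in Old libraries, without overlap. Of the 7 T cell markers 0 had enough counts to be tested in either comparison. Their sums were low but did not overlap either, at 0.549 to 2.03 CPM in Young, 2.16 to 4.26 in Old, 0.845 to 1.61 in Control and 2.03 to 2.69 in SOD1-G93A libraries. Summed border macrophage markers were 1.94 to 5.12 CPM in Young, 2.46 to 4.67 in Old, 1.77 to 3.70 in Control and 4.83 to 7.20 in SOD1-G93A libraries, separate in ALS only. Among single genes, groups were separate in the higher direction for 3.66% of all genes in aging and 25.7% in ALS. The part of these cell types in the levels of the 6 genes was not tested.

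Likeness to Csf1r was taken as the correlation across libraries over all genes tested. Over the 16 aging libraries the highest Pearson correlations of log2 CPM with Csf1r were those of Axl (0.984), Dhrs1 (0.982), Tmem176a (0.982), Slc44a2 (0.979) and Nckap1l (0.978). With group means subtracted, Axl (0.908), Tmem176a (0.886), Dhrs1 (0.884), Ppm1f (0.883) and Slc44a2 (0.881) led. Among the other 5 genes, the correlation over all 16 libraries was 0.907 for Csf1, 0.933 for Csf2rb, 0.928 for Csf3r, 0.666 for Csf2ra and 0.464 for Il34, and with group means subtracted it was 0.428, 0.521, 0.457, 0.220 and 0.168 in the same order. Over the 6 ALS libraries Dab2, P2rx7, Ctsc, Tyrobp and Lair1 led, all between 0.9989 and 0.9997, and the value was -0.186 for Il34. These points share library depth and, in the first and last set, the difference between groups, so the values are descriptions.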

How the data were processed

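RNA was measured in 22 whole spinal cords, 1 library each. By the study's methods, reads went through STAR for alignment to mm10 and RSEM for counting on Ensembl 88. The submitters' processing notes also name SAMtools 1.3. The authors deposited expected counts of RSEM, not normalized between libraries, and a second table of log2 values, the log2 of FPKM plus 1. There, 304 values were above 0 where the deposited count was 0. Columns name a group and not a replicate number, so libraries carry no number here. No pair held identical values, and replicates of a group differed by more than sampling noise, with a chi-square per degree of freedom of at least 2.52. Symbols and positions came from GENCODE M21 (GRCm38), which held 21919 of the 21995 identifiers, and promoter sequences from RefSeq, used for 3 of the 6 genes.

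The deposited counts were already whole numbers, and rounding left them unchanged. In each comparison separately, genes were kept by filterByExpr (minimum count 10, minimum total 15), scaled by TMM and tested with the quasi-likelihood test of edgeR 4.0.16 in R 4.3.3, with p adjusted by Benjamini-Hochberg over every gene tested. As in the study, the thresholds were a log2 fold change beyond 1 and an adjusted p under 0.05, and the adjusted p alone is given too. Single values per library were compared by exact two-sided permutation tests over 12870 arrangements in aging, where the smallest p is 0.000155, and 20 in ALS. Ratios of genes used FPKM, obtained as 2 to the deposited log2 value minus 1. Log2 CPM had a prior count of 2. Alternatives were DESeq2 1.42.0, limma 3.58.1 on the deposited log2 values, RLE factors, other count filters, one fit of all libraries, other units and marker lists, and each library left out. The procedure was also run on simulated data, the outcome of which is not reported here. Limits of 3 counts cover counting error only. Sex per library is not in the labels and was no covariate.

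The 6 genes, the gene lists and the tests were chosen with earlier results of these data known. The genes named were the 6, Csf2rb2, Hmgxb3 as an overlapping gene, every undetected ligand, up to 4 genes per pathway list and comparison with the smallest adjusted p, 2 genes per list of the main cell markers, and the 5 genes most correlated with Csf1r in each set of libraries. Il5ra, Sdc1, Ptprz1, Jak1, Ets2, Adam17, Sod1, Ly6g, Cxcr2 and the genes so described in the text were named after their values were seen. Some genes that the rule selects are not reported here.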

Additional observations from a re-analysis of the deposited data

Results flagged for a closer look

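The change in ALS differed from the change in aging, by the interaction term of edgeR, for Csf1r (1.07 on the log2 scale, adjusted p = 3.47e-05), Csf1 (0.70, adjusted p = 0.000741), Csf2ra (1.21, adjusted p = 0.000147), Csf2rb (1.27, adjusted p = 0.0216) and Csf3r (1.15, adjusted p = 0.000798). In all 5 the increase was the larger in ALS, in 3 of 3 SOD1-G93A libraries above all Control libraries. Of all genes tested, 11.6% had a more positive change in ALS, and 25.7% had all SOD1-G93A libraries above all Control libraries. The call for Csf2rb was lost without Control B, Control C or SOD1-G93A A. The library kit and the experiment coincide, so their shares in these differences cannot be told apart.

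In the Old group the log2 ratio of Csf1 to Il34 was 2.30 in Old F, and the next highest library was at 1.51, a gap of 0.567 of the range of the group against a critical value of 0.526 in Dixon's test for 8 samples. Of 16 sets of values tested this way 1 exceeded its critical value, and chance gives about 1 in 20. In FPKM, Old F held Csf1 at 27.6 and Il34 at 5.60. In CPM it held them at 80.8 and 10.2, beside 91.6 and 11.7 in Old C and 84.6 and 11.1 in Old E. On the CPM scale its ratio was thus close to those of other Old libraries, and why the scales differ was not tested. Old F also had the highest mitochondrial share of its group, 13.2%, and the part of this share in the ratio was not tested.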

How the results depend on the processing

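No paired analysis was possible because the columns carry no replicate numbers. The same 5 genes had an adjusted p under 0.05 in each comparison under DESeq2, RLE factors, no filter, one fit of all libraries and limma, except that Csf2rb was not tested in aging with at least 10 counts in every library. That filter, and limma on log2(FPKM + 1), left 1 of the 6 genes past both thresholds in aging in place of 2; with limma the log2 fold change of Csf2rb was 0.79. Counts of all genes past both thresholds moved more. In aging 297 were higher, and 475 with DESeq2, 508 without a filter, 169 with at least 10 counts in every library and 127 with limma. The 6 lower became 13, 28, 2 and 1 under the same alternatives, 12 in one fit of all libraries, and 5 to 11 with 1 library left out, 11 being reached without Old B, C or E. In ALS 172 were lower, and 56 with limma and 81 to 451 with 1 library left out, the value being 97 without SOD1-G93A A, 451 without B and 81 without C. The cause was not tested.

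Il34 in ALS, which did not pass in any setting, had a log2 fold change of 0.0215 with limma and between -0.13 and 0.0076 with 1 library left out, turning positive without SOD1-G93A B. The difference between comparisons for Csf2rb was 1.05 to 1.64 with 1 ALS library left out, and its call was lost without Control B (1.16), Control C (1.06) or SOD1-G93A A (1.05). The number of genes that differed between comparisons was 3745, and 2381 to 4938 with 1 ALS library left out, the lowest without SOD1-G93A A. Csf1r relative to microglial markers in aging was -0.99 with the myeloid list and 0.0637 with log2(FPKM + 1), and -0.077 to 0.092 with 1 library or 1 marker left out. In ALS it was -1.18 with the myeloid list and 0.189 to 0.623 with 1 library or marker left out. Leaving out each aging library and each marker were alternatives chosen after seeing the data. The low counts of Csf2rb in Young libraries and the 3 libraries a group in ALS limit the precision, and p-values measure the spread between these mice only.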
